A study of Mus musculus with 6 samples.

Results

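Interferon response and MHC genes were examined as 103 of the 16472 genes in the authors' deposited table, which compares mouse HT22 cells exposed to AA147 with HT22 cells given vehicle. The members were defined by their gene symbols (interferons, their receptors, STAT and IRF factors, OAS, IFIT, IFITM, GBP and IRG families, all H2 symbols and 17 single symbols, of which Cmpk2 was not analysed here). The set was chosen by symbol with fold changes of the same comparison already known, so every count below is a description of these libraries and supports nothing on its own. HT22 is 1 immortalised mouse hippocampal cell line, grown in serum-containing medium. The compound AA147 is known to turn on ATF6, a sensor of protein folding stress, and NRF2, which drives the oxidative stress response. The AA147 group comprised 3 libraries collected after 16 h with the compound, at a dose that the labels give as 10 mM (the unit could not be checked, and micromolar may be meant), and the vehicle group comprised 3 libraries collected after 16 h with DMSO. No interferon or infection is named for either group.

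The authors' deposited table has 1 line per gene and 0 values for single libraries, so the spread between replicates is given only by the authors' standard error (SE). Its columns are the mean of the normalized counts of all 6 libraries, a log2 fold change with its SE, and an adjusted p from DESeq2. The table does not name the numerator of the fold change. A negative value is read here as lower with AA147, and if the order were the opposite each direction below would be reversed. Nqo1, Gclm, Txnrd1, Hmox1 and Gsta4, known NRF2 target genes, had log2 fold changes of 0.93, 0.63, 0.67, 0.30 and 1.84 in the authors' deposited table, all positive, which is the sign that NRF2 activation gives under the order assumed. A gene is called when its adjusted p is under 0.05. Averages per group were computed from the mean and the fold change at face value for groups of equal size, and are named implied averages. The labels do not say whether the libraries came from separate cultures, so the SE may reflect technical spread only.

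Interferons are secreted proteins that bind a pair of receptor chains and activate JAK kinases, which phosphorylate STAT proteins. STAT complexes that hold IRF9 bind the interferon-stimulated response element (ISRE), and STAT dimers bind the gamma-activated site (GAS). Their targets include antiviral enzymes, GTPases that attack vacuoles holding microbes, and the machinery that loads peptides onto MHC class I molecules for display at the cell surface. Most cells, neurons included, keep a low basal level of these genes without infection.

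Of the 103 members, 90 had an adjusted p by the authors' deposited table and 13 had none, all of these with a mean under 10. Of the 90, 19 were called negative and 3 positive, which is 21.1% and 3.33% by the authors' deposited table. Among all 13597 genes with an adjusted p, 11.1% were called negative and 9.05% positive, 20.2% in either direction. The median log2 fold change over the 103 members by the authors' deposited table was -0.11, against 0.01 over all genes, and 67 members lay below 0. The called members were mostly small differences, since 12 of the 22 had an absolute log2 fold change under 0.6 and 7 reached 1. The negative calls of at least 1 in size were Iigp1, Oas1c, Tgtp1, Gbp6, Tgtp2 and Gbp3, which apart from Oas1c are interferon-inducible GTPases. The symbols also pick up 5 genes that are named alike and were set apart here, namely Irf2bp1, Irf2bp2, Irf2bpl, Isg20l2 and H2-Ke6. Without them 20 members were called, 18 negative and 2 positive.

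**Figure D1:**
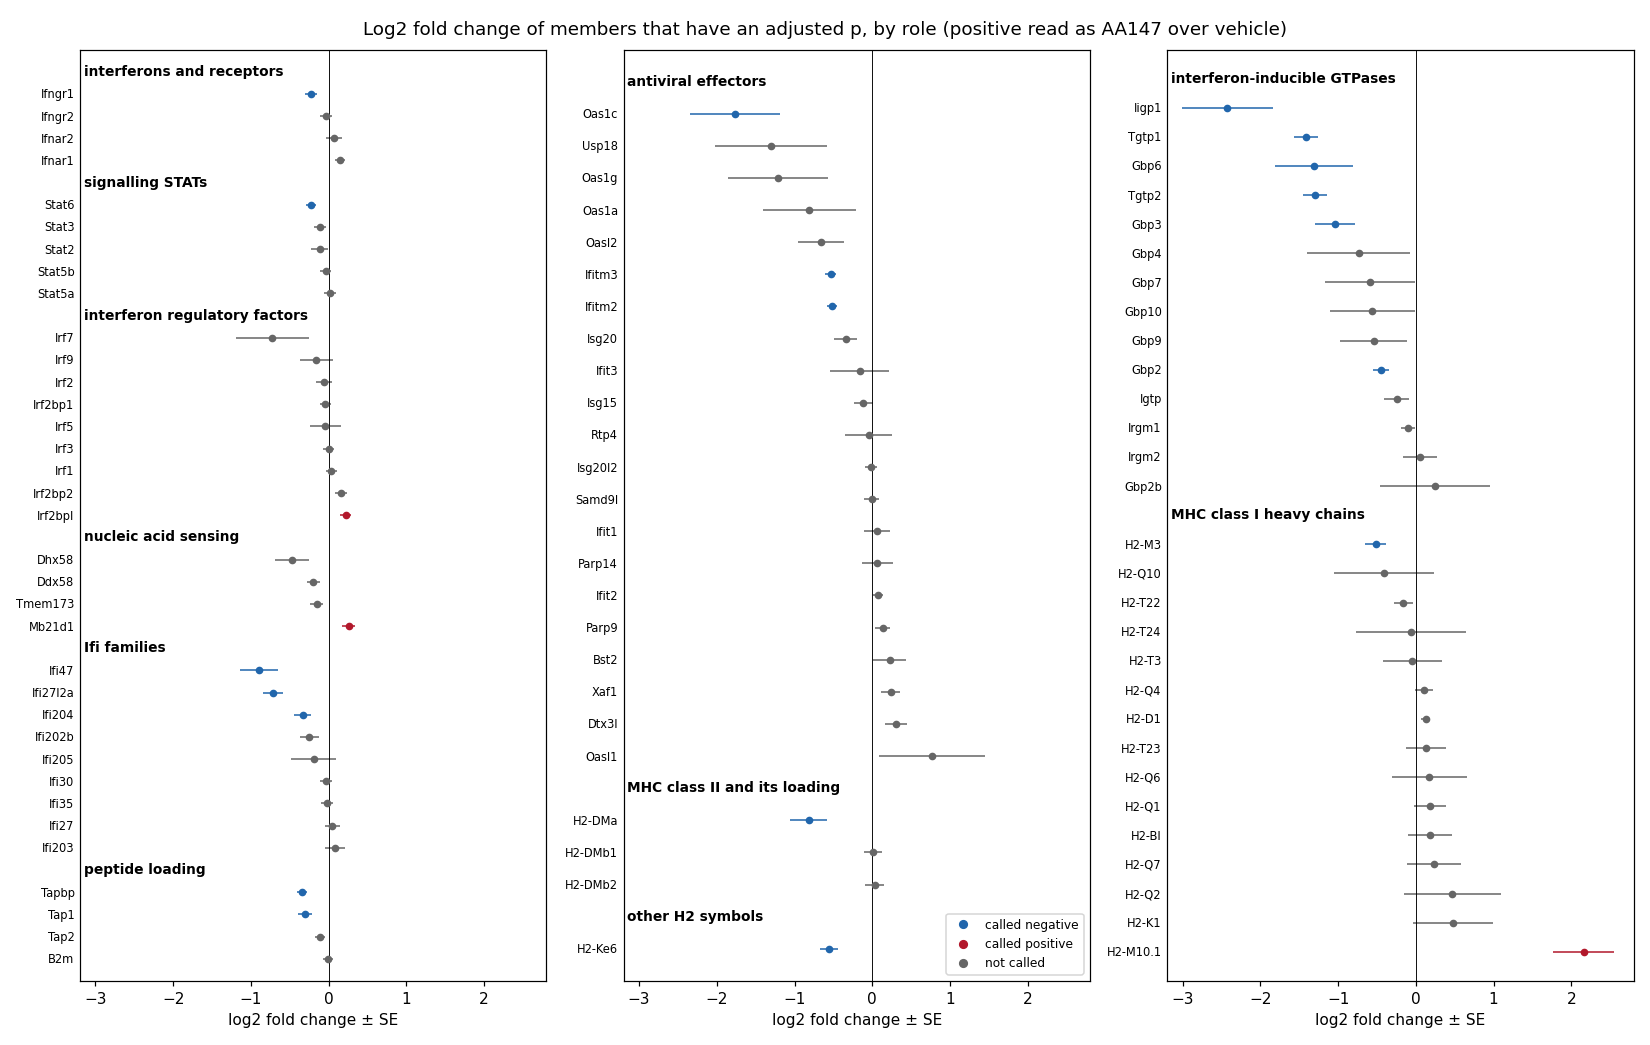
Log2 fold change with its SE by the authors' deposited table for members that have an adjusted p, in groups by role. Each point is a gene and each bar is 1 SE to either side. Blue and red points were called negative and positive, and grey points were not called. The GTPases lie mostly to the left of 0, from -2.43 to 0.24, while the receptors lie from -0.23 to 0.14 and the STATs from -0.22 to 0.02.

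The means of all genes sum to 30768012 normalized counts by the authors' deposited table, and the depth of each library is unknown. HT22 cells are labelled as hippocampal neurons, and 4 of 10 neuron markers were analysed, with Tubb3 the highest at a mean of 1199 by the authors' deposited table. Map2, Rbfox3, Syp, Snap25, Nefl and Nefm were not analysed here, so nothing is said on their expression. The 4 fibroblast markers had means from 181 to 254004 by the authors' deposited table, and all 4 were called negative. Over all genes 11.1% were called negative and 9.05% positive. Their implied summed averages were 246248 with AA147 and 547557 with vehicle. Most of this came from Col1a1 (72014 and 206337) and Col1a2 (171534 and 336475). Immune cells carry many interferon and MHC genes, so their markers were checked too. Of 10 microglia and macrophage markers 3 were analysed. Cd68 (mean 284, log2 fold change 1.5) and Csf1r (mean 48.0, 0.95) were called positive by the authors' deposited table. Itgam, with a mean of 1.71, lay at -0.51 and had no adjusted p by the authors' deposited table. The implied summed averages of this list were 484 with AA147 and 184 with vehicle, of which Cd68 alone made up 420 and 149. The astrocyte and endothelium markers analysed had means of at most 5.77, and the lymphocyte markers Cd79a and Nkg7 had means of at most 2.14 by the authors' deposited table, and Ptprc, which marks blood cells in general, was not analysed here. The part of these markers in the differences below was not tested. In bulk libraries fewer cells that express a gene and less RNA of it per cell cannot be told apart.

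**Figure D2:**
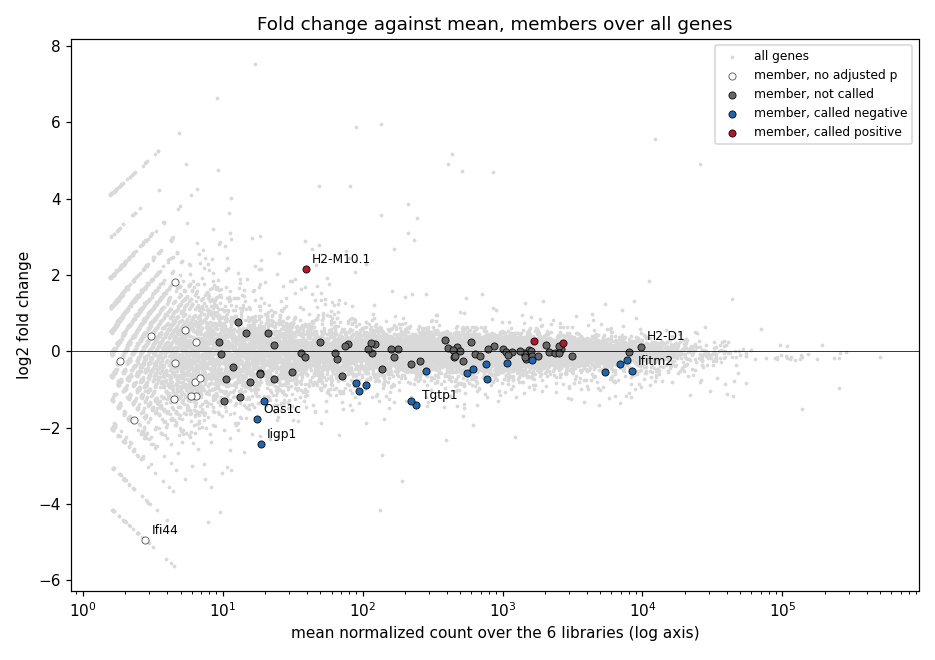
Log2 fold change against the mean normalized count over the 6 libraries on a log axis, by the authors' deposited table. Grey dots are all genes and circles are the members, coloured by call and white where no adjusted p is given. H2-M10.1 at 2.16 and Iigp1 at -2.43 are the called members farthest from 0.

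The interferon receptors had 1 call among 4 genes, where 20.2% of all genes were called, and that difference was small. In the authors' deposited table Ifnar1 and Ifnar2, the chains of the type I receptor, had means of 2544 and 786 and log2 fold changes of 0.14 (SE 0.066, adjusted p = 0.114) and 0.07 (SE 0.10, adjusted p = 0.721). Ifngr1, the ligand-binding chain of the interferon gamma receptor, was called negative at -0.23 (SE 0.074, adjusted p = 0.0144) by the authors' deposited table, with implied averages of 1484 with AA147 and 1738 with vehicle. Its partner Ifngr2 lay at -0.04 (SE 0.075, adjusted p = 0.801) by the authors' deposited table, with a 95% interval from -0.18 to 0.11. The difference between the chains was not tested. The single ligand gene with a line was Ifnz, a type I interferon, with a mean of 5.39 and no adjusted p by the authors' deposited table. Other interferon genes were not analysed here.

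The STAT genes, which carry the signal to the nucleus, had 1 call among 6 members, where 20.2% of all genes were called. Stat6, known for signalling from interleukin 4, had the highest mean of the family, 7817, and was called negative at -0.22 (SE 0.062, adjusted p = 0.00304) by the authors' deposited table. Stat2, a factor of the type I interferon response, lay at -0.11 (SE 0.11, adjusted p = 0.535) by the authors' deposited table, with a 95% interval from -0.33 to 0.10. Stat3 at -0.11, Stat5a at 0.02 and Stat5b at -0.04 were not called by the authors' deposited table, with means of 1789, 1333 and 2527.

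The interferon regulatory factors proper, 6 genes, had 0 calls by the DESeq2 test of the authors' deposited table, and 0 of the 6 had an unadjusted p under 0.05. Over all genes with an adjusted p 20.2% were called, so 0 calls among 6 genes says little about the group. Irf3, which is activated after nucleic acid sensing, had a mean of 1608 and a log2 fold change of 0.00 (SE 0.075) by the authors' deposited table. Irf1, an activator of MHC class I and GTPase genes, lay at 0.04 (SE 0.074) with a 95% interval from -0.11 to 0.18 by the authors' deposited table. The lowest value was that of Irf7, the amplifier of type I interferon production, at -0.72 with a mean of 23.1 and an SE of 0.47 (adjusted p = 0.300) by the authors' deposited table. Irf9, a DNA-binding partner of STAT proteins, lay at -0.16 (SE 0.21), with a 95% interval from -0.58 to 0.25, by the authors' deposited table. The call in this symbol group was Irf2bpl, which is named after an IRF2-binding protein, at 0.22 (SE 0.069, adjusted p = 0.00995) by the authors' deposited table. The related Irf2bp1 and Irf2bp2 had means of 2378 and 2061 and were not called by the authors' deposited table.

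Among the sensors of foreign nucleic acid, Mb21d1, which encodes the DNA sensor cGAS, was called positive at 0.26 (SE 0.086, adjusted p = 0.0171) by the authors' deposited table. Its implied averages were 1826 with AA147 and 1526 with vehicle. Tmem173, which encodes STING, the adaptor that receives the cGAS product, lay at -0.15 (SE 0.080, adjusted p = 0.17) with a mean of 1438 by the authors' deposited table. The RNA sensor gene Ddx58, which encodes RIG-I, lay at -0.20 (SE 0.083, adjusted p = 0.0739), and Dhx58, which encodes its relative LGP2, at -0.48 (SE 0.22, adjusted p = 0.114) by the authors' deposited table. The cGAS gene and the other 3 thus lay on opposite sides of 0, and only the former was called.

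The interferon-inducible GTPases had the most calls of any role group, with 6 of 14 members that had an adjusted p, all negative. Over all genes 11.1% were called negative, 13.1% at a mean of at least 100 and 3.88% at a mean under 100. Of the 16 GTPase members 6 had a mean of at least 100, among them the called Tgtp1, Tgtp2 and Gbp2. The other 10 had a mean under 100, and 2 of these had no adjusted p. With near-identical pairs counted once, by the gene with the higher mean, 5 of 12 were called. This kept Gbp6, which was called, and left out Gbp10, which was not, and the summed pair was not tested. Of all 16 GTPase members 14 lay below 0, with a median log2 fold change of -0.66, by the authors' deposited table. These proteins assemble on vacuoles and membranes around intracellular microbes, and the IRG and GBP families act there together. Tgtp1 and Tgtp2, a pair of IRG genes, stood out by the smallest adjusted p of all members. In the authors' deposited table Tgtp1 had a mean of 240 and a log2 fold change of -1.41 (SE 0.16, adjusted p = 1.02e-17), and Tgtp2 a mean of 223 and -1.30 (SE 0.16, adjusted p = 2.38e-14). Their canonical transcripts were 99.8% identical over 2811 bases, so reads could be assigned to either, and they are best read as 1 measurement. Summed, their implied averages were 260 with AA147 and 667 with vehicle, a log2 difference of -1.36.

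The other IRG genes varied in size and call. Iigp1, which is known for its action against Toxoplasma, had the lowest called value of all members at -2.43 (SE 0.59, adjusted p = 4.83e-04) by the authors' deposited table, from a mean of 18.8 and implied averages of 5.89 with AA147 and 31.6 with vehicle. Ifi47, which by name falls in the Ifi group but encodes an IRG GTPase, was called negative at -0.89 (SE 0.24, adjusted p = 0.00209) by the authors' deposited table, with implied averages of 74.3 and 138. Irgm1 and Irgm2, the regulators that keep the other IRG proteins inactive on host membranes, lay at -0.10 (SE 0.089, adjusted p = 0.50) and 0.05 (SE 0.22, adjusted p = 0.918) by the authors' deposited table. Igtp, the third regulator, lay at -0.25 (SE 0.16, adjusted p = 0.284) by the authors' deposited table. In these data the 4 called IRG genes, Tgtp1 and Tgtp2 being best read as 1 measurement, were effectors, and the 3 regulators were not called. Over all genes 11.1% were called negative, and the lack of a call does not show that the regulators were unchanged. The difference between effectors and regulators was not tested. The 95% intervals of Irgm1, Irgm2 and Igtp ran from -0.27 to 0.08, -0.38 to 0.48 and -0.56 to 0.06 by the authors' deposited table. Tgtp2 and Ifi47 are direct neighbours among protein-coding genes in the RefSeq order of mouse assembly GRCm38.p6, with 1 other gene between Tgtp1 and Tgtp2. Igtp and Irgm2 neighbour each other elsewhere on the same chromosome. Irgm1, which was not called, lies on the other side of Tgtp1 with 4 protein-coding genes between.

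The GBP genes, which encode guanylate-binding proteins, had 3 negative calls among 8 members with an adjusted p by the authors' deposited table. Of their 10 fold changes 9 were below 0. Over all genes 11.1% were called negative and 48.6% lay below 0. Gbp2, the most abundant with a mean of 619, was called at -0.45 (SE 0.10, adjusted p = 1.86e-04) by the authors' deposited table. Gbp3 was called at -1.04 (SE 0.25, adjusted p = 5.61e-04), with implied averages of 61.3 with AA147 and 126 with vehicle by the authors' deposited table. Gbp6 was called at -1.31 (SE 0.50, adjusted p = 0.0438) from a mean of 19.9, close to the threshold, by the authors' deposited table, and its call was lost when p-values were adjusted over every gene with a p. The transcripts of Gbp6 and Gbp10 were 98.5% identical over 4332 bases, and Gbp10 itself lay at -0.56 (SE 0.55, adjusted p = 0.540) by the authors' deposited table. Summed, the implied averages of Gbp6 and Gbp10 were 26.3 with AA147 and 50.2 with vehicle. Gbp4, Gbp7 and Gbp9 had means from 10.6 to 31.3 and log2 fold changes of -0.73, -0.59 and -0.54 by the authors' deposited table, with SEs of 0.43 or more, and were not called. Gbp5 and Gbp11 had means under 10 and no adjusted p, and Gbp2b was the 1 GBP gene with a positive value, 0.24 (SE 0.71) by the authors' deposited table.

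Promoter sequences were examined because the GTPase genes are textbook interferon targets and several had negative values together. RefSeq windows of assembly GRCm38.p6, from 250 bases before to 50 after each start, were found for 81 of the 103 members. An ISRE core was taken as GAAA, any 2 bases, and GAAA again, and a GAS as TTC, any 3 bases, and GAA, on both strands. The windows of Tgtp1, Tgtp2, Gbp2 and Gbp3 are shown as called members, that of Irgm1 as an abundant GTPase gene that was not called, and those of Ifitm2 and Ifitm3 as the most abundant called antiviral genes. Capitals mark bases in an ISRE or GAS match, and each window runs 5′ to 3′ along the gene.
Tgtp1 (GRCm38.p6, chr11:48992197-48992496, - strand): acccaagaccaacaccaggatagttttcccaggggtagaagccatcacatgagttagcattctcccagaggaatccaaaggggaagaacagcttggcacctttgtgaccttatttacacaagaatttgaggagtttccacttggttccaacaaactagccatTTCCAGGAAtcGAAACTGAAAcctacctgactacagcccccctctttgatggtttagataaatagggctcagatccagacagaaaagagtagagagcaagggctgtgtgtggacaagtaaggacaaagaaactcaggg
Tgtp2 (GRCm38.p6, chr11:49064163-49064462, - strand): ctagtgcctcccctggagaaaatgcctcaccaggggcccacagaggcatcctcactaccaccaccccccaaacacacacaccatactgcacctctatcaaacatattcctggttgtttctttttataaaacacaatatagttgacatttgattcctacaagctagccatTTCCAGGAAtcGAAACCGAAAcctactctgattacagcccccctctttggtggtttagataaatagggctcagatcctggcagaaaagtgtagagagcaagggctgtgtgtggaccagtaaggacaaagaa
Gbp2 (GRCm38.p6, chr3:142620413-142620712, + strand): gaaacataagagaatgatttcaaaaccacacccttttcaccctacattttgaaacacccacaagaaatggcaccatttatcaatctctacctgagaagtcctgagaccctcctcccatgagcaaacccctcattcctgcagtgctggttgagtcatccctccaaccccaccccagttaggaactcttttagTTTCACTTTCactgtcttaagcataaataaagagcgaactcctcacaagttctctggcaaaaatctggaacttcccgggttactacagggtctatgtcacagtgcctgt
Gbp3 (GRCm38.p6, chr3:142559794-142560093, + strand): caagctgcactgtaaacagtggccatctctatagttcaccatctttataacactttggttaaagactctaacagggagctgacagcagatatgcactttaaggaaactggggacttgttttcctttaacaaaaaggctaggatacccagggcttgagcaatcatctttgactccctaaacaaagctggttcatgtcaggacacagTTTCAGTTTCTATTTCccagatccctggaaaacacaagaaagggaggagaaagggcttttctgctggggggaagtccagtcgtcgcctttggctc
Irgm1 (GRCm38.p6, chr11:48871371-48871670, - strand): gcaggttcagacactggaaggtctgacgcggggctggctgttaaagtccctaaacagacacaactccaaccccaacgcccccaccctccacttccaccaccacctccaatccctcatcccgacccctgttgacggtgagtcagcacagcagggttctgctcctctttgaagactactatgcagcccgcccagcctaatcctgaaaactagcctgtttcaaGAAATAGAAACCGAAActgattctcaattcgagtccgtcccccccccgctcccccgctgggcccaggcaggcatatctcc
Ifitm2 (GRCm38.p6, chr7:140955912-140956211, - strand): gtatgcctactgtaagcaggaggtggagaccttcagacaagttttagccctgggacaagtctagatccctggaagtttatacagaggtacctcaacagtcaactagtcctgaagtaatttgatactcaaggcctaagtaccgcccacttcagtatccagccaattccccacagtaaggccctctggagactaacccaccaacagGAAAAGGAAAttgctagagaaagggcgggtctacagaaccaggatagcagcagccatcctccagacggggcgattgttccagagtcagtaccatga
Ifitm3 (GRCm38.p6, chr7:141010695-141010994, - strand): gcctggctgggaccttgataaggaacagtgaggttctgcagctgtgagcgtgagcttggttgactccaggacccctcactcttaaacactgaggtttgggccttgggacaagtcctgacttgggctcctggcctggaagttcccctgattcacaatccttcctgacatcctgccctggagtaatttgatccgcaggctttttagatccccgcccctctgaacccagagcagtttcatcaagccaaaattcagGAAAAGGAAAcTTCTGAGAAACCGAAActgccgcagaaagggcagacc
Tgtp1 and Tgtp2 each held 1 GAS and 1 ISRE core, separated by 2 bases, with the ISRE core ending 67 and 60 bases before the annotated start. Gbp3 held 2 overlapping ISRE cores and no GAS, and so did Irgm1, although the former was called at -1.04 and the latter lay at -0.10 by the authors' deposited table. Gbp2 held 1 ISRE core. Ifitm2 held 1 ISRE core 36 bases before its start, and Ifitm3 held 2 ISRE cores and 1 GAS just after its annotated start. The window of Ifi47, called negative, held neither letter pattern. Neither did those of Tap1, called negative, and H2-D1, not called, nor the window of another Gbp3 start. The window of B2m, not called, held 1 ISRE core. All windows printed above hold an ISRE core, so they do not stand for the members in general. Among GTPase genes with a window, 10 of 10 held an ISRE core and 6 a GAS, in called and uncalled genes alike.

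Over all members an ISRE core was found in 29 of 92 windows, 31.5%, against 3.44% of all 32851 windows of that length. A GAS was found in 22.8% of the members' windows and 8.30% of all windows. The symbol rule names interferon-inducible families, so both gaps may come from the choice of members and say nothing on AA147. By gene, 7 of 15 members called negative and 19 of 53 members that were not called held an ISRE core, so the pattern was present on both sides. An antioxidant response element core, the NRF2 motif TGAC, any 3 bases, GC, was found in 17.4% of the members' windows and 12.4% of all windows. It was held by 1 of the 15 members called negative, Oas1c, and by 12 of the 53 members that were not called. The ATF6 motif ERSE, written as CCAAT, any 9 bases and CCACG, was found in 0 of the members' windows and 0.119% of all windows, and the palindromic cyclic AMP response element (CRE) in 1.09% and 1.79%. These are letter matches in 1 window per start and not measured binding. Windows of near-identical genes such as Tgtp1 and Tgtp2 are not independent of each other.

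**Figure D3:**
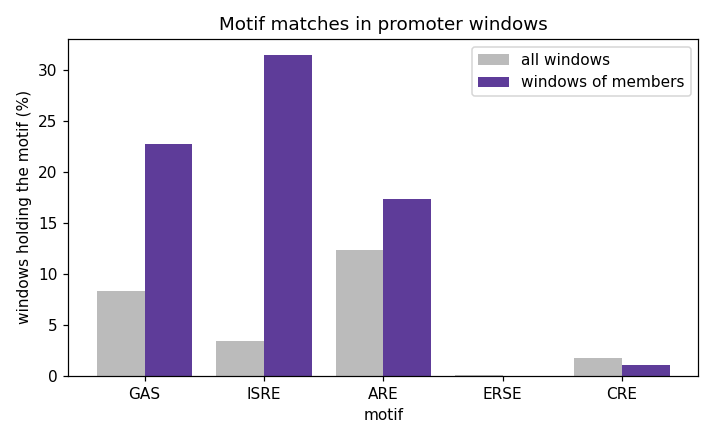
Percent of promoter windows that hold each motif, for the 92 windows of members (purple) and all 32851 windows (grey). GAS, ISRE, ARE, ERSE and CRE are the motifs spelled out in the text. The largest gap is for the ISRE core, 31.5% against 3.44%. The symbol rule names interferon-inducible families, so this gap says nothing on the response to AA147.

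The antiviral effectors had 3 calls among 21 members with an adjusted p, each negative, by the authors' deposited table. That is 14.3%, near the 11.1% of all genes called negative, so the count is no result about the group. Ifitm2 and Ifitm3, membrane proteins that block the fusion of viruses with endosomes, were the most abundant of them. Ifitm2 had a mean of 8420 and a log2 fold change of -0.52 (SE 0.069, adjusted p = 4.11e-12), with implied averages of 6926 with AA147 and 9913 with vehicle, by the authors' deposited table. Ifitm3 had a mean of 5425 and -0.54 (SE 0.076, adjusted p = 6.24e-11), with implied averages of 4428 and 6421, by the authors' deposited table. The pair thus had nearly the same fold change at high counts. Ifitm1, Ifitm5 and Ifitm6 had means of at most 6.94 and no adjusted p by the authors' deposited table.

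The OAS genes, whose products make an RNA messenger that activates RNase L, were all weakly expressed, with means from 6.40 to 71.7 by the authors' deposited table. Oas1c was called negative at -1.77 (SE 0.58, adjusted p = 0.0160), with implied averages of 8.05 with AA147 and 27.4 with vehicle, by the authors' deposited table. Oas1a at -0.81, Oas1g at -1.21 and Oasl2 at -0.66 were also below 0 by the authors' deposited table and were not called, with adjusted p of 0.381, 0.184 and 0.0959. The transcripts of Oas1a and Oas1g were 97.5% identical, so their counts may be divided between them. Oasl1 lay at 0.77 (SE 0.68) and Oas3 at 0.26 (SE 0.90) by the authors' deposited table, and both 95% intervals include 0. Usp18, which removes ISG15 and dampens the type I receptor, lay at -1.31 from a mean of 10.2 (SE 0.72, adjusted p = 0.203) by the authors' deposited table.

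Besides these families, several interferon-stimulated genes were measured with higher counts and not called. Isg15, a ubiquitin-like modifier, had a mean of 460 and lay at -0.11 (SE 0.12) with a 95% interval from -0.35 to 0.12 by the authors' deposited table. Ifit1, Ifit2 and Ifit3, which bind foreign RNA, lay at 0.06, 0.07 and -0.16 by the authors' deposited table, and Ifit2, with a mean of 2631, had a 95% interval from -0.06 to 0.20. Samd9l, a translation inhibitor, lay at -0.01 (SE 0.094, mean 1170) by the authors' deposited table. Rsad2, the antiviral enzyme viperin, had a mean of 3.05 and no adjusted p by the authors' deposited table. Isg20, an exonuclease, lay at -0.34 (SE 0.15, adjusted p = 0.0968), which is the second most negative uncalled value at a mean of at least 100 by the authors' deposited table, after Dhx58. On the positive side Dtx3l at 0.30 (adjusted p = 0.126), Xaf1 at 0.24 (adjusted p = 0.165) and Bst2, the tethering factor for budding viruses, at 0.22 (adjusted p = 0.531) were the largest uncalled values at that mean by the authors' deposited table. Parp9, the partner of DTX3L, and Parp14 lay at 0.13 and 0.07 by the authors' deposited table.

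The genes with an Ifi symbol are a mixed set of interferon-inducible genes, and 3 of 9 with an adjusted p were called, all negative. The share called negative over all genes was 11.1%. Besides Ifi47, Ifi27l2a, a small mitochondrial protein gene, was called at -0.71 (SE 0.12, adjusted p = 2.12e-07), with implied averages of 590 with AA147 and 967 with vehicle, by the authors' deposited table. Its direct neighbour Ifi27 had a mean of 1011 and lay at 0.05 (SE 0.096) with a 95% interval from -0.14 to 0.24 by the authors' deposited table. Ifi204, a DNA-binding member of the Ifi200 family, was called at -0.33 (SE 0.11, adjusted p = 0.0137), with implied averages of 673 and 848, by the authors' deposited table. The other family members Ifi202b, Ifi203 and Ifi205 lay at -0.25, 0.08 and -0.19 and were not called by the authors' deposited table. Ifi30, a lysosomal thiol reductase for antigen processing, had the highest mean of the set, 2153, and lay at -0.03 (SE 0.076) by the authors' deposited table. Ifi35 lay at -0.02 (SE 0.083) by the authors' deposited table. Ifi44 had the most negative value of all members, -4.93, but a mean of 2.8, an SE of 1.71 and no adjusted p by the authors' deposited table.

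The MHC class I heavy chains, which present peptides to cytotoxic T cells, had 1 call in each direction. Of 15 with an adjusted p, 1 was called negative and 1 positive by the authors' deposited table, and the median over 17 members was 0.14. Of all genes 11.1% were called negative and 9.05% positive. H2-D1, a classical chain, had the highest mean of all members, 9707, which was 85.1% of the summed heavy chain means by the authors' deposited table. It lay at 0.12 (SE 0.057, adjusted p = 0.108), with a 95% interval from 0.01 to 0.24 before adjustment and implied averages of 10126 with AA147 and 9288 with vehicle by the authors' deposited table. H2-K1, the other classical chain here, had a mean of 21.2 and lay at 0.48 (SE 0.51, adjusted p = 0.589) by the authors' deposited table. Per kilobase of transcript, the mean of H2-D1 was 351 times that of H2-K1. The H2 alleles of the line are not given in the sources used here, and class I genes vary between strains and resemble each other, with H2-D1 and H2-K1 transcripts 88.2% identical over 1513 bases, and how reads were divided among them was not tested.

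The called negative chain was H2-M3, which presents formylated peptides of bacteria, at -0.52 (SE 0.14, adjusted p = 0.00187), with implied averages of 234 with AA147 and 335 with vehicle by the authors' deposited table. The called positive chain was H2-M10.1, one of a family known from vomeronasal neurons, at 2.16 (SE 0.39, adjusted p = 1.05e-06), with implied averages of 63.9 and 14.3, by the authors' deposited table. Its direct neighbour H2-M10.2, with a transcript 87.3% identical over 1000 bases, lay at 1.81 (SE 1.14) from a mean of 4.54 and had no adjusted p by the authors' deposited table. The Qa and T region genes with a mean of at least 100, H2-Q1, H2-Q4 and H2-T22, had fold changes of 0.18, 0.10 and -0.16 (log2) by the authors' deposited table, with adjusted p from 0.413 to 0.603. H2-T23, which encodes Qa-1, the ligand of inhibitory NKG2 receptors, lay at 0.14 (SE 0.26) by the authors' deposited table.

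Of the 4 peptide loading genes 2 were called, both negative, where 11.1% of all genes were called negative. Tapbp, which encodes tapasin, the bridge between the peptide transporter and the heavy chain, was called negative at -0.34 (SE 0.063, adjusted p = 1.23e-06), with implied averages of 6047 with AA147 and 7674 with vehicle, by the authors' deposited table. Tap1, a subunit of the transporter, was called at -0.31 (SE 0.091, adjusted p = 0.00631), with implied averages of 968 and 1199, by the authors' deposited table. Tap2, its partner subunit, lay at -0.11 (SE 0.069, adjusted p = 0.273) with a 95% interval from -0.25 to 0.02 by the authors' deposited table. B2m, the light chain of every class I molecule, had a mean of 7954 and lay at -0.01 (SE 0.068, adjusted p = 0.947) with a 95% interval from -0.14 to 0.12 by the authors' deposited table. The most abundant class I components, H2-D1 and B2m, were thus not called, while 2 of the 3 loading factors were slightly lower with AA147.

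The H2 symbols beyond class I held 2 negative calls, 1 among 3 class II members with an adjusted p and H2-Ke6. Of all genes 11.1% were called negative. H2-DMa, a chain of the H2-DM complex that exchanges peptides on MHC class II, was called at -0.82 (SE 0.24, adjusted p = 0.00597), with implied averages of 64.9 with AA147 and 114 with vehicle, by the authors' deposited table. Its partner chain genes H2-DMb1 and H2-DMb2 had means of 496 and 443 and lay at 0.01 and 0.03 (SE 0.12 each) by the authors' deposited table. H2-Oa had a mean of 1.85 by the authors' deposited table, and the class II molecules that H2-DM serves, such as H2-Aa and H2-Ab1, were not analysed here. H2-Ke6, listed in RefSeq also as Hsd17b8, encodes a steroid and fatty acid dehydrogenase whose gene lies in the MHC. It was called at -0.56 (SE 0.12, adjusted p = 4.57e-05) by the authors' deposited table.

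Levels can be compared between genes only per transcript length, which was known for 101 members from GENCODE M39. On this scale, mean normalized counts per kilobase over both groups, the median of the members was 79.5 and that of 14291 genes with a length was 189. Ifitm2 was highest at 8505, followed by B2m at 7324, H2-D1 at 4585, Ifitm3 at 4248 and Tapbp at 2304 per kilobase. Ifi30 and Stat6 followed at 2105 and 2037 per kilobase. Of the 101 members 44 lay above the median of all genes, but only 2 of 16 GTPases did, Irgm1 at 525 and Gbp2 at 244 per kilobase. Tgtp1 and Tgtp2 lay at 83.2 and 79.5, and Iigp1 at 6.17 per kilobase. The 5 called members with the highest level, Ifitm2, Ifitm3, Tapbp, Stat6 and Ifi27l2a (1642 per kilobase), had log2 fold changes between -0.71 and -0.22 by the authors' deposited table. These levels have no error here, since the table has no SE for a mean, so close neighbours in this order are not separated.

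**Figure D4:**
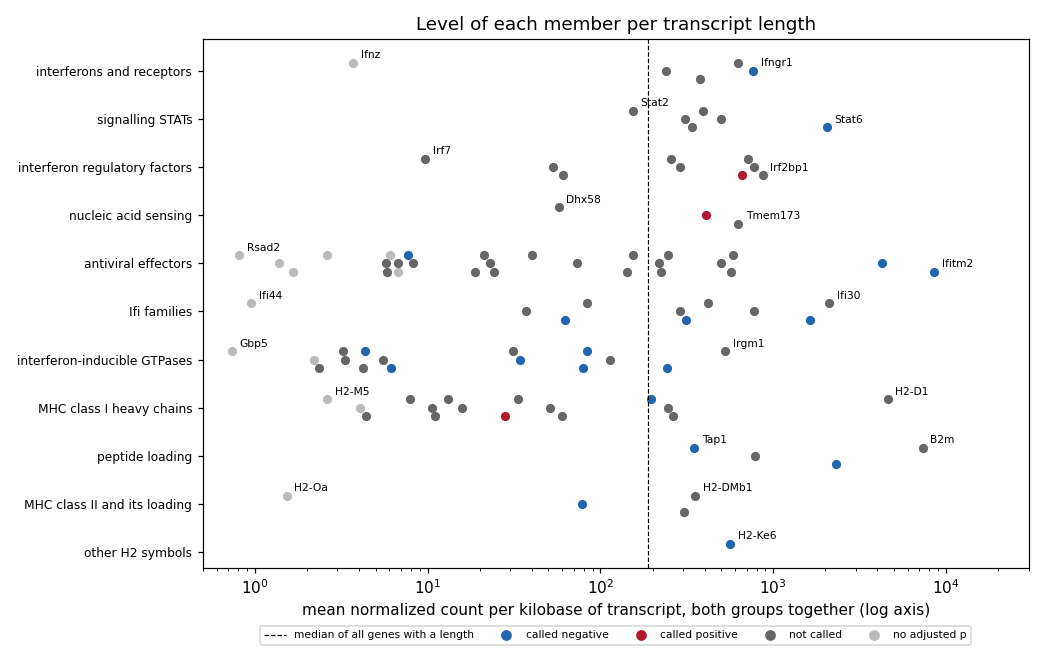
Mean normalized count per kilobase of canonical transcript, both groups together, on a log axis, for the 101 members with a known length. Each point is a gene, coloured by its call from the authors' deposited table, and the lowest and highest of each role are named. The dashed line marks the median of all genes with a length, 189 per kilobase, above which 2 of 16 GTPases and 4 of 16 heavy chains lie.

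Genes of the same pathways outside the symbol rule were taken from lists of general knowledge. Of 113 genes listed 99 were in the authors' deposited table and 95 had an adjusted p, of which 16 were called negative and 6 positive, with a median log2 fold change of 0.00. Those are 16.8% and 6.32%, against 11.1% and 9.05% of all genes. Among 14 receptor kinases and brakes, Cish at -0.80 (SE 0.16, adjusted p = 1.38e-05) and Socs3 at -0.65 (SE 0.11, adjusted p = 7.67e-08), feedback inhibitors of cytokine receptors, were called negative by the authors' deposited table. Jak2, a kinase of the interferon gamma and other receptors, at 0.39 (SE 0.076, adjusted p = 7.81e-06) and Pias4 at 0.25 (SE 0.071, adjusted p = 0.00324) were called positive by the authors' deposited table. Of 19 sensing adaptors and kinases, 1 was called, Ticam1, the adaptor of TLR3, at -0.30 (SE 0.085, adjusted p = 0.00447) by the authors' deposited table.

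The antigen processing list had 15 genes with an adjusted p by the authors' deposited table, of which 4 were called negative and 2 positive. Those are 26.7% and 13.3%, against 11.1% and 9.05% of all genes. The immunoproteasome subunit Psmb10 at -0.32, the proteasome activator Psme2 at -0.33 and the trimming peptidase Erap1 at -0.32 were called negative by the authors' deposited table, with adjusted p from 7.26e-04 to 0.0259. The chaperone Calr was called at -0.17, while Pdia3, the thiol oxidoreductase of the loading complex, was called positive at 0.26 (SE 0.060, adjusted p = 1.85e-04) by the authors' deposited table. Rfxank, a regulator of MHC transcription, was called at 0.46 by the authors' deposited table. Calr and Pdia3 also serve protein folding in general.

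Of 47 other interferon-stimulated genes with an adjusted p, 9 were called negative and 2 positive. Those are 19.1% and 4.26%, against 11.1% and 9.05% of all genes. The largest were the chemokine Ccl5 at -1.48 (SE 0.21, adjusted p = 4.80e-11), the very large inducible GTPase Gvin1 at -1.24 (SE 0.21, adjusted p = 5.30e-08), and the complement proteases C1s1 at -1.0 and C1ra at -0.92 by the authors' deposited table. Apol9a at 0.30 and Rnf114 at 0.28 were the positive calls by the authors' deposited table. Among the most abundant of the list, Ly6e with a mean of 8217 was called at -0.21 (SE 0.065, adjusted p = 0.00983) by the authors' deposited table. These pathway lists were read beside the same background of 20.2% called, and 22 of their 95 genes, 23.2%, were called.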

How the data were processed

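HT22 libraries, 3 per group, were made as non-stranded mRNA sequencing libraries, per the labels' protocols. Genome build mm9 and DESeq2 are named in the submitters' processing notes, and the aligner, counter and annotation are not given in the sources used here. The authors deposited per gene a log2 fold change with its standard error and a mean normalized count, which is a signal scaled to a library of average size. They also deposited a test statistic (a score, here equal to log2 fold change over standard error) and p-values, raw and adjusted. Depth per library is unknown. The 2875 genes with no adjusted p had means of at most 8.41 and stayed without a call.

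Members and lists were chosen with earlier results of these data known. The genes named are the called members, the 3 most abundant of each role group, the 3 largest uncalled values in each direction at a mean of at least 100, and up to 4 called genes per pathway list and direction. The values of 1 member are not reported here. Others named were chosen after their values were seen. The 95% intervals are normal intervals from the SE. Protein identity had been planned, and transcript identity, from BLAST 2.17.0 on GENCODE M39 canonical transcripts, was used in its place. Lengths came from the same transcripts, matched by symbol or RefSeq synonym. Promoters were RefSeq windows of GRCm38.p6. No coordinate of the counts is given. The calls were recomputed with stricter thresholds, other adjustments and other centres, in Python 3.11.15 with pandas 2.3.3 and SciPy 1.17.1, and the code was tested on simulated data.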

Additional observations from a re-analysis of the deposited data

How the results depend on the processing

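No paired analysis was possible because values of single libraries were not analysed here, only 1 line per gene. For the same reason leaving out replicates and other normalizations were not run. The 22 called members were the same 22 when fold changes were centred on abundant genes or on reference genes, and the 44 values of called members under these centres kept their sign and call. Adjusting over every gene with a p also gave 22, of which 21 were shared, with Gbp6 lost and Ifi44 gained. An adjusted p under 0.01 left 17 of the 90 members with an adjusted p, without Gbp6, Ifi204, Ifngr1, Mb21d1 and Oas1c. The receptor and sensor groups then had 0 calls. Among all 13597 genes with an adjusted p, 1818 were called at that threshold. A Bonferroni adjustment, stricter by construction, left 8 members, 7 negative and 1 positive, and 774 of all 13597 genes. Asking also for a size of 0.5 or more on the log2 scale left 14, of which 13 negative and 1 positive. The share of all genes at that size was not computed. The median log2 fold change of the members was -0.11, was -0.04 at a mean of at least 100, and its replacement by the mean gave -0.28, where weakly expressed members such as Ifi44 weigh more. Leaving out the 5 symbols named alike, or counting near-identical pairs once by the gene with the higher mean, was chosen after the data were seen. These gave 20 and 21 calls. No member had an SE of 1.5 times that of the 200 genes nearest in mean or more, the largest ratio being 1.24. Precision was lowest for the 42 members with a mean under 100, whose median SE was 0.607.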
